A study of Mus musculus with 14 samples.

Results

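The 6 mouse PCGF genes encode the Polycomb group RING finger proteins, and each PRC1 complex holds 1 of them. Their RNA levels were read in sorted spermatogonia in which Cbx2, a chromodomain subunit of canonical PRC1, was deleted or carried substitutions. The members are the whole gene family by name (Pcgf1, Pcgf2, Bmi1, Pcgf3, Pcgf5 and Pcgf6), a rule that uses no measured value, and make up 6 of the 24984 genes in the count tables. All 6 were present in both tables and passed the filter on low counts in both experiments.

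PRC1 places ubiquitin on histone H2A through RING1 or RNF2, and the PCGF partner of that enzyme decides which other subunits can join. Canonical complexes contain PCGF2 or BMI1 together with a CBX protein, which reads the methyl mark laid down by PRC2, and a Polyhomeotic protein. Variant complexes contain RYBP or YAF2 in place of CBX and are built on PCGF1 (PRC1.1), PCGF3 or PCGF5 (PRC1.3 and PRC1.5) or PCGF6 (PRC1.6). BMI1 is known from mouse work as a factor that keeps stem cells of several tissues dividing, and PRC1.6 is known for silencing germline and meiotic genes in mouse embryonic stem cells.

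c-KIT-positive differentiating spermatogonia, male germ cells on their way to meiosis, were sorted by flow cytometry from C57BL/6J testes and sequenced in bulk as 14 libraries of 1 animal each. In the first experiment, 2 animals with Rosa26-CreERT2 and Cbx2 Flox/Δ received 3 daily injections of 200 µL of tamoxifen at 20 mg/mL, and are called Cbx2-deleted here. Their 2 controls carried Rosa26-CreERT2 with Cbx2 Flox/+ and received corn oil without tamoxifen, so genotype and drug cannot be told apart. In the second experiment, 5 animals were homozygous for Cbx2 23KRA, an allele with lysines and arginines of the CaPS domain changed to alanine, and 5 were Cbx2 +/+, all untreated. Rosa26 is active in most cell types, so the deletion was not limited to germ cells. The sources used here do not state ages. The experiments used different kits (an mRNA kit for the deletion and a total RNA kit for 23KRA), and each was normalized and tested in its own table.

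Libraries held 28169990 to 31166500 counts in the deletion experiment and 14562564 to 19814511 in the 23KRA experiment, with 19822 to 19976 and 14958 to 17330 genes detected. Levels are given in CPM, a count relative to the TMM-scaled size of its library. Cbx2 itself had 78.5 and 86.5 CPM in Cbx2-deleted libraries, against 93.9 and 97.7 CPM in oil controls (log2 fold change -0.21, SE 0.12, edgeR adjusted p = 0.971). It had 89.7, 57.9, 73.9, 48.8 and 50.3 CPM in 23KRA homozygotes, against 81.0, 79.2, 83.6, 53.2 and 68.0 CPM in wild types (-0.19, SE 0.16, edgeR adjusted p = 0.9998). A count over the whole gene does not separate deleted or substituted stretches from the rest, so it does not check the labels. The markers Kit and Stra8 were present in every group, but so were the spermatid markers Prm1 and Prm2, so this does not show how pure the sort was. Kit averaged 242 CPM in Cbx2-deleted libraries and 231 CPM in oil controls, and 258 CPM in 23KRA homozygotes and 254 CPM in wild types. Stra8 averaged 564 CPM in Cbx2-deleted libraries and 536 CPM in oil controls, and 666 CPM in homozygotes and 726 CPM in wild types. In bulk libraries, fewer cells of a type and less RNA per cell cannot be told apart.

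The pairs that build the same kind of PRC1 are shown first, because a read is counted for the right gene only where their sequences differ. Over the 15 pairs of PCGF genes, identity across the aligned coding sequences (GENCODE transcripts, GRCm38) ran from 52.0% for Bmi1 and Pcgf6 to 68.2% for Pcgf2 and Bmi1. No pair shared an identical coding stretch longer than 14 bases. The stretch below lies in the part that codes for the N-terminal RING finger and holds the longest run shared by the canonical pair, at coding bases 59 to 161 of both genes, with capitals for the 83 of 103 bases (80.6%) that are the same at the same place.
Pcgf2: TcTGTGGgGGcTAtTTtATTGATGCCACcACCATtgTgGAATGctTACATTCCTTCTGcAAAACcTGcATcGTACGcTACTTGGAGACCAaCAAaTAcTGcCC
Bmi1: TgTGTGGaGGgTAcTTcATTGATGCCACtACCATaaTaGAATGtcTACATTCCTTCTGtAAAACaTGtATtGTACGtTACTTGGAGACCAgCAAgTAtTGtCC
For the variant pair the stretch with their longest shared run starts at or near the start codon, before the RING finger, and runs into it. The printed stretches of the canonical and variant pairs therefore cover the same part of the protein only in part. It lies at coding bases 1 to 96 of Pcgf3 and 4 to 99 of Pcgf5, with 51 of 96 bases (53.1%) in capitals.
Pcgf3: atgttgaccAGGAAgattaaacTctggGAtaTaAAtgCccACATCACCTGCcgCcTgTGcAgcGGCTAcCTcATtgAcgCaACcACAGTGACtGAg
Pcgf5: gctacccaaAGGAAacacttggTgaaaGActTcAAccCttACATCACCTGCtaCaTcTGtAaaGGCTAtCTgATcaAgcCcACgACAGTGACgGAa
Over whole transcripts the longest identical run of any pair was 39 bases, between Pcgf5 and Pcgf6. The sources used here do not state how a read with several matches was counted.

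On GRCm38, Pcgf1 (ENSMUSG00000069678.10) lies at chr6:83077869-83080855 on the plus strand and Pcgf2 (ENSMUSG00000018537.16) at chr11:97688823-97700497 on the minus strand. Bmi1 (ENSMUSG00000026739.13) lies at chr2:18677018-18686629 and Pcgf3 (ENSMUSG00000033623.13) at chr5:108461232-108506976, both on the plus strand. Pcgf5 (ENSMUSG00000024805.16) at chr19:36348309-36460970 on the plus strand and Pcgf6 (ENSMUSG00000025050.8) at chr19:47033617-47050906 on the minus strand share a chromosome. All 6 are protein-coding, and exon lengths refer to all exons of a gene in GENCODE together. The sources used here do not state the annotation behind the counts, so levels per kb assume that the counts cover the same exons. Exons of Pcgf5 share 60 bases (0.48% of its exon length) with F530104D19Rik, an antisense gene that has no row in the tables used here. No other PCGF gene had an exon overlapping another gene.

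RNA of all 6 PCGF genes was detected in every library, from 87 counts for Pcgf6 in a 23KRA homozygote to 13161 counts for Pcgf5 in a Cbx2-deleted library. To set levels of different genes side by side, CPM was divided by the length of a gene's exons, which run from 1649 bases in Pcgf1 to 12629 bases in Pcgf5. In the deletion experiment Bmi1 was highest (mean over the 4 libraries 54.7 CPM per kb), followed by Pcgf5 (33.6), Pcgf1 (21.4), Pcgf3 (8.57), Pcgf6 (7.70) and Pcgf2 (3.75 CPM per kb). The ranges over libraries of neighbours in this order did not overlap except those of Pcgf3 and Pcgf6, although Pcgf3 was above Pcgf6 in 4 of 4 libraries. In the 23KRA experiment Bmi1 was again highest (48.1 CPM per kb over 10 libraries), followed by Pcgf3 (16.5), Pcgf5 (13.0), Pcgf2 (10.7), Pcgf1 (10.6) and Pcgf6 (2.35 CPM per kb). There the ranges of the 4 genes in the middle overlapped from one neighbour to the next. Pcgf3 was above Pcgf5 in 9 of 10 libraries, and Pcgf2 above Pcgf1 in 4 of 10.

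The order rests partly on which length is used. With the length of the longest annotated transcript, Pcgf5 (65.9 CPM per kb) was above Bmi1 (60.5 CPM per kb) in 4 of 4 libraries of the deletion experiment, and Pcgf6 was above Pcgf3. In the 23KRA experiment the same length put Pcgf5 above Pcgf3 in 10 of 10 libraries and left Bmi1 highest. Pcgf2 was lowest in the deletion experiment and Pcgf6 lowest in the 23KRA experiment with either length.

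Of the summed level of the 6 genes per kb of exon, Bmi1 made up the largest part in each of the 4 groups. Its share averaged 42.3% ± 1.67 in Cbx2-deleted libraries and 42.0% ± 0.724 in oil controls (SD, n = 2 each). It averaged 48.5% ± 2.10 in 23KRA homozygotes and 46.4% ± 2.64 in wild types (SD, n = 5 each). Pcgf2, the other canonical member, averaged 2.53% ± 0.364 in Cbx2-deleted libraries and 3.29% ± 0.869 in oil controls, and 10.1% ± 2.20 in 23KRA homozygotes and 10.9% ± 2.43 in wild types. For both genes the mutant mean lay within 1 SD of the control mean in each experiment. With the longest transcript as length, the share of Bmi1 was 31.2% in Cbx2-deleted libraries and 31.0% in oil controls, below the share of Pcgf5 (34.5% in Cbx2-deleted libraries, 33.2% in oil controls), and 39.6% in 23KRA homozygotes and 37.7% in wild types.

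**Figure D1:**
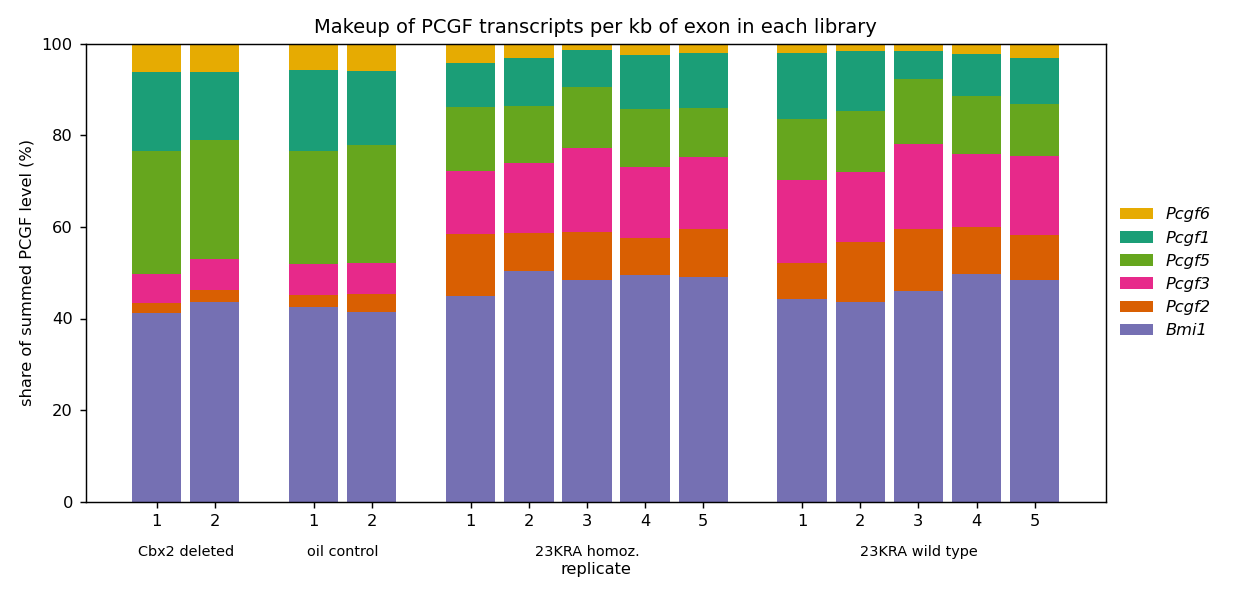
Share of each PCGF gene in the summed level of the 6 genes, in CPM per kb of exon, as stacked percentages for each of the 14 libraries. Bmi1 is the largest block of each bar, with group means of 42.3% in Cbx2-deleted libraries, 42.0% in oil controls, 48.5% in 23KRA homozygotes and 46.4% in wild types.

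Deletion of Cbx2 was not followed by a detected change in any of the 6 genes. By the quasi-likelihood F test of edgeR, adjusted over all genes (Benjamini-Hochberg), 0 of the 6 passed an adjusted p of 0.05 and 0 had an unadjusted p below it, and DESeq2 and limma-voom also called 0. Over all genes, 2 of 16725 (0.012%) passed, the proteoglycan gene Dcn and the Leydig cell gene Cyp17a1, and 793 (4.74%) had an unadjusted p under 0.05. The number called over all genes was 73 without Cbx2-deleted replicate 2, 11 without oil control replicate 1 and 3 without oil control replicate 2. Each of these fits leaves 1 library in a group, which is assumed to vary like the libraries of the other group. Of the 6 log2 fold changes, 4 were above 0 and 2 below, with a median of 0.049, against a median of -0.0044 over all genes tested. The 95% intervals of the fold changes lay between 0.627 and 1.32, so a doubling was outside the interval of each of the 6 genes.

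The canonical members came out on opposite sides of 0. Pcgf2, also called Mel18, had 10.9 and 12.6 CPM in Cbx2-deleted libraries, against 12.4 and 16.9 CPM in oil controls. One oil control was above the other 3 libraries, and the groups overlapped. Its log2 fold change of -0.32 (SE 0.17) was the farthest from 0 among the 6 and did not pass (unadjusted p = 0.0696, edgeR adjusted p = 0.971). With the replicate number as a block its unadjusted p in edgeR was 0.0264 (adjusted p = 0.392). Its unadjusted p was 0.126 by DESeq2 and 0.0857 by limma-voom. Leaving out 1 library leaves 1 in its group, and the log2 fold change depended on which library was left out. It was -0.43 without Cbx2-deleted replicate 2 and -0.52 without oil control replicate 1. It was -0.22 without Cbx2-deleted replicate 1 and -0.081 without oil control replicate 2, the highest library. Bmi1 had 223.2 and 221.6 CPM in Cbx2-deleted libraries, against 222.2 and 202.6 CPM in oil controls. Again 1 oil control stood apart, here as the lowest, and the groups overlapped (log2 fold change 0.067, SE 0.11, edgeR adjusted p = 0.974).

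Pcgf1, the PRC1.1 member that works with the CpG-binding demethylase KDM2B, had 38.8 and 31.7 CPM in Cbx2-deleted libraries, against 38.1 and 32.8 CPM in oil controls. In both groups replicate 1 was the higher library, and the difference between groups was smaller than that between replicates (log2 fold change -0.0081, SE 0.14, edgeR adjusted p = 0.996). Pcgf3, whose product builds complexes with AUTS2 and casein kinase, had 83.0 and 82.4 CPM in Cbx2-deleted libraries, against 83.8 and 78.1 CPM in oil controls. The mutant values fell inside the range of the controls (log2 fold change 0.031, SE 0.12, edgeR adjusted p = 0.986).

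Pcgf5, the paralog of Pcgf3 in such complexes, had 462.5 and 419.9 CPM in Cbx2-deleted libraries, against 413.0 and 402.3 CPM in oil controls. Both mutant libraries were above both controls. The log2 fold change was 0.11 (SE 0.11, edgeR adjusted p = 0.971). Pcgf6 had 42.2 and 38.8 CPM in Cbx2-deleted libraries, against 37.8 and 36.0 CPM in oil controls, again without overlap (log2 fold change 0.13, SE 0.13, edgeR adjusted p = 0.971). Of all genes tested, 15.6% had both mutant libraries above both controls and 17.5% had both below, so 2 of 6 PCGF genes above and 0 below is close to what genes in general showed with 2 libraries a group.

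**Figure D2:**
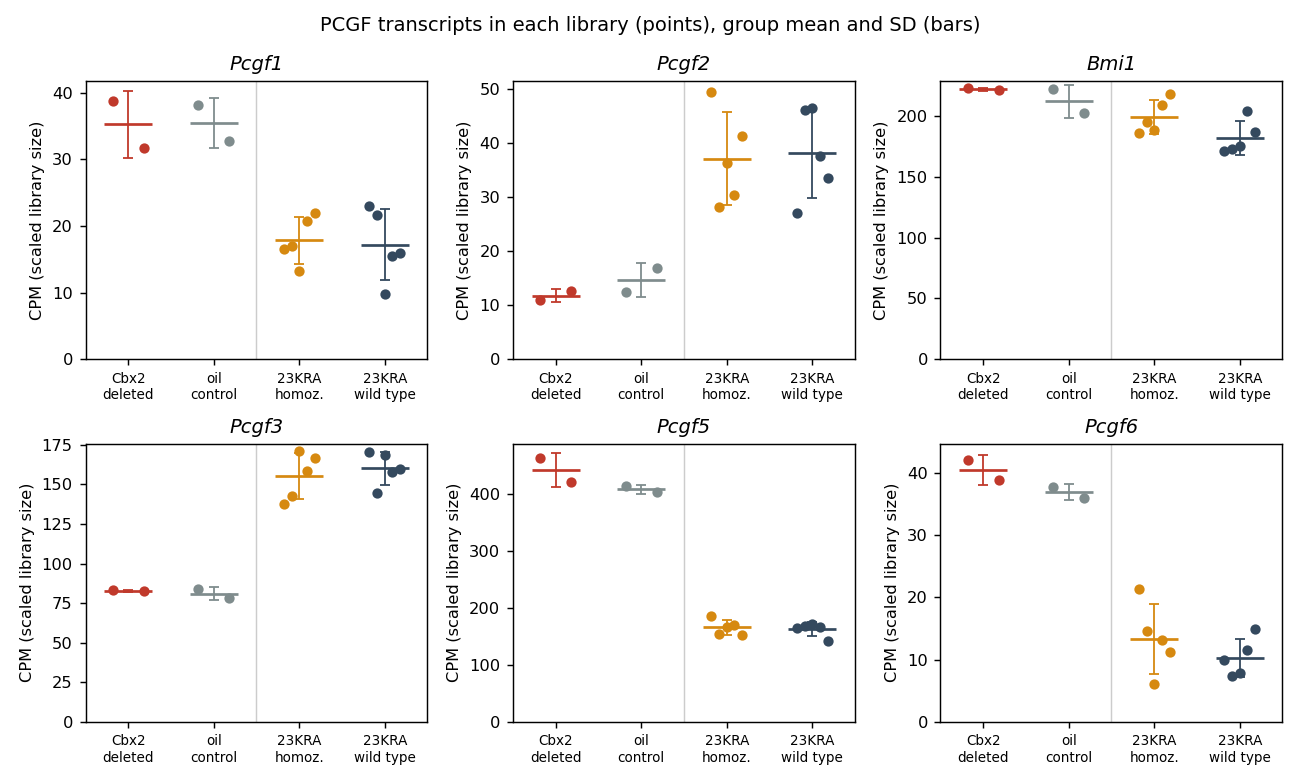
Level of each PCGF gene in each library (CPM), with bars for each group mean and SD, for Cbx2-deleted libraries, oil controls, 23KRA homozygotes and wild types. Mutant and control points overlap in all panels except those of Pcgf5 and Pcgf6 in the deletion experiment, where both mutant points lie above both controls.

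In 23KRA homozygotes none of the 6 genes passed either. edgeR called 0 of 6 at an adjusted p of 0.05 and 0 at an unadjusted p of 0.05, as DESeq2 and limma-voom called 0. Over all genes 0 of 14208 (0%) passed, and 432 (3.04%) had an unadjusted p under 0.05. Of the 6 log2 fold changes, 4 were above 0 and 2 below, with a median of 0.041, against 0.0034 over all genes tested. The ranges of the groups overlapped for all 6, where 0.436% of all genes had all mutants above all wild types and 0.274% all below.

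Bmi1 had 186.3, 195.0, 188.6, 209.8 and 218.2 CPM in 23KRA homozygotes, against 171.5, 172.8, 175.7, 204.8 and 186.8 CPM in wild types. Of the wild types, 3 were below all homozygotes, and replicate 4 was above 3 of the homozygotes. With means of 199.6 ± 13.9 CPM in homozygotes and 182.3 ± 13.9 CPM in wild types (SD, n = 5 each), Bmi1 had the smallest unadjusted p of the 6 in this experiment (log2 fold change 0.13, SE 0.082, unadjusted p = 0.126, edgeR adjusted p = 0.9998). Over the alternative settings its log2 fold change ran from 0.089 to 0.18. The top of this range was without wild-type replicate 4 (edgeR unadjusted p = 0.0488, adjusted p = 0.984). The bottom was without the 2 libraries with fewest genes detected (edgeR unadjusted p = 0.362). Without homozygote replicate 5 it was 0.097 (edgeR unadjusted p = 0.293). Pcgf2 had 49.5, 28.2, 36.2, 30.4 and 41.3 CPM in homozygotes, against 27.1, 46.1, 46.4, 37.6 and 33.4 CPM in wild types. Both groups spread over about the same range, with the highest value in a homozygote and the lowest in a wild type (log2 fold change -0.037, SE 0.18).

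Pcgf1 had 16.6, 16.9, 13.2, 20.8 and 21.9 CPM in homozygotes, against 23.0, 21.7, 9.71, 15.5 and 16.0 CPM in wild types. Both the highest and the lowest value were in wild types, around all those of the homozygotes (log2 fold change 0.056, SE 0.24). Pcgf3 had 137.7, 142.9, 171.0, 158.5 and 167.0 CPM in homozygotes, against 170.3, 144.5, 168.8, 158.0 and 159.9 CPM in wild types. The lowest 2 and the highest value were in homozygotes (log2 fold change -0.045, SE 0.088). Pcgf5 had 184.9, 153.5, 166.1, 170.4 and 152.1 CPM in homozygotes, against 165.1, 167.6, 172.3, 165.9 and 141.1 CPM in wild types. Wild-type replicate 5 was below all other libraries, and the remaining 4 wild types lay within the range of the homozygotes (log2 fold change 0.026, SE 0.086).

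Pcgf6, the defining member of PRC1.6, had 21.4, 14.6, 6.00, 13.2 and 11.3 CPM in homozygotes, against 9.92, 7.28, 7.91, 11.5 and 14.9 CPM in wild types. The homozygotes held both the highest and the lowest library. Its means of 13.3 ± 5.58 CPM in homozygotes and 10.3 ± 3.06 CPM in wild types (SD, n = 5 each) gave the largest log2 fold change of the 6 in this experiment, 0.37 (SE 0.31, unadjusted p = 0.241, edgeR adjusted p = 0.9998). The 95% interval of its fold change ran from 0.831 to 2.01, the widest of the 6, and that of Bmi1 from 0.973 to 1.23. With 1 library left out, the log2 fold change of Pcgf6 ran from 0.12 (without homozygote replicate 1, the highest) to 0.55 (without homozygote replicate 3, the lowest), and it was 0.54 without wild-type replicate 5, the highest wild type. None of these passed.

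**Figure D3:**
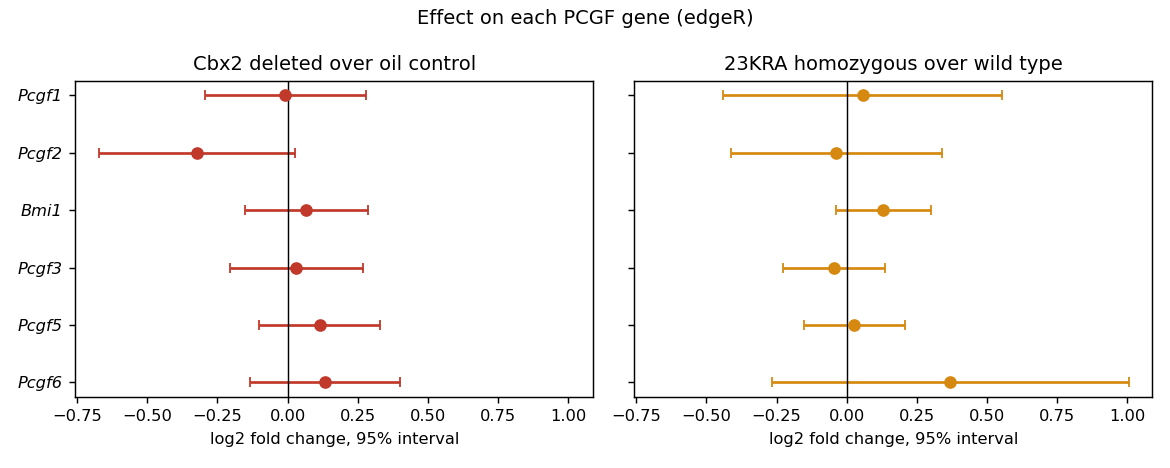
Log2 fold change of each PCGF gene, mutant over control, with its 95% interval from edgeR, for Cbx2 deletion and for 23KRA. Each interval includes 0, and the widest is that of Pcgf6 in 23KRA, at 0.37 with a standard error of 0.31.

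Whether the effects of the deletion and of 23KRA differ was tested by the interaction contrast in 1 fit of all 14 libraries. For the PCGF genes 0 of 6 passed, with edgeR adjusted p of 0.99996 each, and over all genes 0 of 13979 (0%) passed and 44 had an unadjusted p under 0.05. The largest difference, deletion minus 23KRA, was -0.31 (SE 0.35) for Pcgf2 and the smallest 0.054 (SE 0.15) for Pcgf3. The fit shares 1 estimate of spread between experiments whose common biological coefficients of variation were 0.0988 (deletion) and 0.393 (23KRA). Genes with an unadjusted p under 0.05 were far fewer than in the fit of either experiment alone. A lack of calls here therefore does not show that the effects are alike.

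In the 23KRA experiment the 3 members of lower CPM varied more among libraries of 1 group than the other 3. Pcgf6 had a coefficient of variation of 42.0% in homozygotes and 29.7% in wild types, where counting error alone gives 7.29% in homozygotes and 7.94% in wild types. The coefficient of Pcgf1 was 19.6% in homozygotes and 31.1% in wild types, and that of Pcgf2 was 23.2% in homozygotes and 21.8% in wild types. Bmi1 (6.94% in homozygotes, 7.65% in wild types), Pcgf3 (9.41% in homozygotes, 6.46% in wild types) and Pcgf5 (8.12% in homozygotes, 7.53% in wild types) varied least, each against a counting error under 2%. In the deletion experiment, with 2 libraries a group, the coefficients ran from 0.488% for Pcgf3 in Cbx2-deleted libraries to 21.7% for Pcgf2 in oil controls.

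The experiments differed from each other in the make-up of the family more than mutants did from controls. Pcgf1, Pcgf5 and Pcgf6 had higher CPM in all 4 libraries of the deletion experiment than in all 10 of the 23KRA experiment, Pcgf2 and Pcgf3 had lower CPM, and the ranges of Bmi1 overlapped. Over all genes, 40.2% had a higher range in the deletion experiment and 17.5% a lower one, so such gaps were common. Pcgf5 had 402.3 to 462.5 CPM in the deletion experiment and 141.1 to 184.9 CPM in the 23KRA experiment. Library kit, animals, injections and sequencing differ between the experiments at once and cannot be told apart. The spermatid markers summed to 2349 to 3087 CPM in the deletion experiment and 235 to 1073 CPM in the 23KRA experiment. Sums of the markers of differentiating spermatogonia overlapped between the experiments. Whether the make-up of cells has a part in these gaps was not tested.

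Ratios of paralogs within a library show the same split. The level of Pcgf2 per kb was 5.52 and 6.40% of that of Bmi1 in Cbx2-deleted libraries, against 6.31 and 9.42% in oil controls. It was 16.3 to 30.0% in 23KRA homozygotes (median 21.3%), against 17.8 to 30.1% in wild types (median 20.7%). The level of Pcgf3 per kb was 23.7 and 26.0% of that of Pcgf5 in Cbx2-deleted libraries, against 25.7 and 26.8% in oil controls. It was 98.6 to 145% in homozygotes (median 123%), against 114 to 150% in wild types (median 130%). In all 4 cases the ranges of mutants and controls overlapped, and the ranges of the experiments did not. These ratios use the length of all exons. With the longest transcript as length, Pcgf5 was above Pcgf3 in 10 of 10 libraries of the 23KRA experiment. Which of them is higher there thus rests on the length used.

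**Figure D4:**
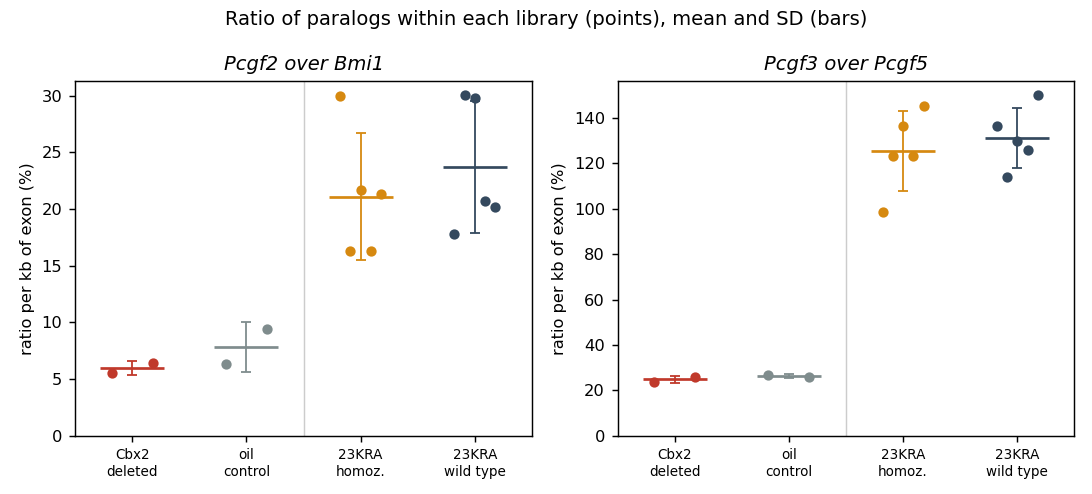
Level per kb of exon of Pcgf2 as a percentage of Bmi1 and of Pcgf3 as a percentage of Pcgf5, within each library, by group. Mutants and controls overlap in each experiment, while the 23KRA libraries lie above those of the deletion experiment for both ratios.

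The partners that PCGF proteins bring together, 36 genes in 5 lists, had no call in either comparison. In Cbx2-deleted libraries 0 of 36 rose and 0 fell by edgeR, DESeq2 or limma-voom. An edgeR unadjusted p under 0.05 was found for 2 of the 36, against 4.74% of all genes. Of these 36, 15 had a log2 fold change above 0 and 21 below, with a median of -0.023. In 23KRA homozygotes 0 of the 35 tested rose or fell, and 3 had an edgeR unadjusted p under 0.05, against 3.04% of all genes. Of these 35, 11 were above 0 and 24 below, and the median was -0.024. Medians over all genes were -0.0044 and 0.0034.

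Among the 4 genes for the catalytic subunits and for RYBP and YAF2, Rnf2, the E3 ligase of all PRC1 types, averaged 170 ± 4.59 CPM in Cbx2-deleted libraries and 161 ± 4.41 CPM in oil controls (SD, n = 2 each). Yaf2, whose product stands in for CBX in variant complexes, averaged 147 ± 10.2 CPM in Cbx2-deleted libraries and 144 ± 3.58 CPM in oil controls. Rnf2 averaged 86.8 ± 3.91 CPM in 23KRA homozygotes and 83.6 ± 6.90 CPM in wild types (SD, n = 5 each). Rybp, the paralog of Yaf2, averaged 82.9 ± 13.4 CPM in homozygotes and 83.2 ± 9.29 CPM in wild types. The list of 4 had medians of -0.0017 and 0.025 on the log2 scale for deletion and 23KRA, with 2 members above 0 in each.

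Of the 11 canonical partners, 4 were above 0 and 7 below in the deletion (median log2 fold change -0.097), and 3 above and 7 below of 10 tested in 23KRA (median -0.065). Scml2, a germline Polycomb protein, averaged 563 ± 5.80 CPM in Cbx2-deleted libraries and 524 ± 42.6 CPM in oil controls, and 514 ± 45.1 CPM in 23KRA homozygotes and 479 ± 38.8 CPM in wild types. Phc1, a Polyhomeotic subunit, averaged 94.2 ± 21.5 CPM in Cbx2-deleted libraries and 107 ± 16.2 CPM in oil controls, and 154 ± 17.2 CPM in homozygotes and 159 ± 21.5 CPM in wild types. Cbx7 and Cbx6, chromodomain paralogs of Cbx2 named after their values were seen, had the smallest unadjusted p of the list in 23KRA (0.0293 and 0.0428) at means of 4.43 and 2.11 CPM in homozygotes, against 8.05 and 4.62 CPM in wild types. Their log2 fold changes of -0.86 (SE 0.37) and -1.13 (SE 0.52) did not pass (edgeR adjusted p = 0.9998 each), and in the deletion they were -0.11 (SE 0.17) and -0.097 (SE 0.27). The largest log2 fold change of the list in the deletion, 1.14 (SE 0.64, edgeR adjusted p = 0.971), was that of Scml4, likewise chosen after its values were seen, at means of 0.525 CPM in Cbx2-deleted libraries and 0.241 CPM in oil controls.

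None of the partners of the variant types passed. For PRC1.1, 1 of 5 was above 0 in the deletion and 2 of 5 in 23KRA (median log2 fold changes -0.013 and -0.035). Skp1a, a ubiquitin ligase adaptor, averaged 1277 ± 139 CPM in Cbx2-deleted libraries and 1155 ± 62.4 CPM in oil controls, and 531 ± 34.5 CPM in homozygotes and 502 ± 55.4 CPM in wild types. Usp7, a deubiquitinase, averaged 366 ± 21.6 CPM in Cbx2-deleted libraries and 370 ± 3.61 CPM in oil controls, and 559 ± 40.4 CPM in homozygotes and 573 ± 38.5 CPM in wild types.

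For PRC1.3 and PRC1.5, 6 of 7 partners were below 0 in the deletion and 6 of 7 in 23KRA, with median log2 fold changes of -0.17 and -0.047. Csnk2b, the regulatory subunit of casein kinase, averaged 223 ± 4.64 CPM in Cbx2-deleted libraries and 251 ± 7.31 CPM in oil controls (log2 fold change -0.17, SE 0.11, edgeR adjusted p = 0.971). It averaged 122 ± 14.8 CPM in homozygotes and 126 ± 18.8 CPM in wild types. Dcaf7, a WD40 scaffold protein, averaged 144 ± 9.68 CPM in Cbx2-deleted libraries and 135 ± 1.96 CPM in oil controls, and Auts2, an activator brought in by PCGF3 and PCGF5, averaged 222 ± 13.8 CPM in homozygotes and 217 ± 17.1 CPM in wild types. The 2 partners with an unadjusted p under 0.05 in the deletion, Fbrs (0.0381, log2 fold change -0.37) and Csnk2a2 (0.0400, -0.26), were in this list and were named after their values were seen, and neither passed (edgeR adjusted p = 0.971 each). Fbrsl1, chosen in the same way, had an unadjusted p of 0.0452 in 23KRA (log2 fold change -0.24, edgeR adjusted p = 0.9998).

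For PRC1.6, 7 of 9 partners were above 0 in the deletion and 3 of 9 in 23KRA (median log2 fold changes 0.031 and -0.020). Hdac2, a histone deacetylase, averaged 455 ± 36.3 CPM in Cbx2-deleted libraries and 421 ± 23.9 CPM in oil controls, and 290 ± 13.6 CPM in homozygotes and 298 ± 25.5 CPM in wild types. Wdr5, a WD40 subunit, averaged 289 ± 13.0 CPM in Cbx2-deleted libraries and 277 ± 15.2 CPM in oil controls. Mga, the transcription factor on which PRC1.6 is assembled, averaged 793 ± 63.6 CPM in homozygotes and 775 ± 52.5 CPM in wild types.

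Of 10 germline genes that PRC1.6 represses in mouse embryonic stem cells, all passed the filter on low counts in both experiments, and 0 rose or fell in either comparison. In Cbx2-deleted libraries 9 of 10 had a log2 fold change above 0 (median 0.10, 0 with an unadjusted p under 0.05). Of the 5 general germ cell markers 5 were above 0 there (median 0.13), and 4 of them (Ddx4, Dazl, Mael and Sycp3) are also among these 10. In 23KRA homozygotes 6 of 10 were above 0 (median 0.025, 3 with an unadjusted p under 0.05). Over all genes, 4.74% in the deletion and 3.04% in 23KRA had an edgeR unadjusted p under 0.05. Dazl, an RNA-binding protein of germ cells, averaged 3468 ± 181 CPM in Cbx2-deleted libraries and 3126 ± 306 CPM in oil controls, and Sycp3, of the synaptonemal complex, 1193 ± 159 CPM in Cbx2-deleted libraries and 1048 ± 48.8 CPM in oil controls. Smc1b, a meiotic cohesin, averaged 1533 ± 155 CPM in 23KRA homozygotes and 1507 ± 32.4 CPM in wild types, and Taf7l, a testis paralog of a TFIID subunit, 814 ± 71.0 CPM in homozygotes and 835 ± 32.0 CPM in wild types. The 3 germline genes with an unadjusted p under 0.05 in 23KRA, named after their values were seen, were the ATP carrier Slc25a31 (log2 fold change 0.32), Dazl (0.17) and the meiotic cohesin Stag3 (-0.13), with edgeR adjusted p = 0.9998 each.

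**Figure D5:**
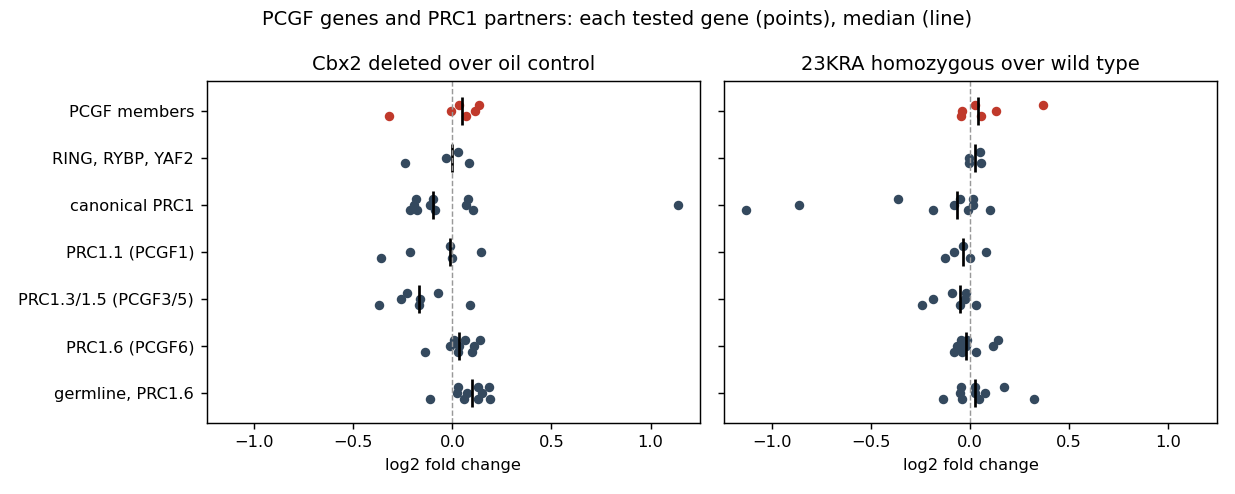
Log2 fold change of each tested gene, mutant over control, for the PCGF genes, their partners by PRC1 type and the germline genes, in Cbx2 deletion and in 23KRA; lines mark medians. No point passed an adjusted p of 0.05, and the medians lie between -0.17 and 0.10.

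Markers of cell types were read beside these values, and their part in them was not tested. The 9 markers of differentiating spermatogonia summed to 1514 to 1520 CPM in Cbx2-deleted libraries and 1468 to 1503 CPM in oil controls, and to 1271 to 1540 CPM in 23KRA homozygotes and 1489 to 1624 CPM in wild types. In the deletion 5 of the 9 were above 0 and 4 below (median log2 fold change 0.00075). In 23KRA 1 was above 0 and 8 were below (median -0.12). The 5 general germ cell markers summed to 6141 to 6637 CPM in Cbx2-deleted libraries and 5467 to 6145 CPM in oil controls, and to 1967 to 2161 CPM in homozygotes and 1837 to 2165 CPM in wild types. None of either list passed. The 8 spermatid markers summed to 2349 to 2713 CPM in Cbx2-deleted libraries, against 2725 to 3087 CPM in oil controls, and to 235 to 1073 CPM in homozygotes, against 285 to 1068 CPM in wild types. All 8 had a log2 fold change below 0 in both comparisons and none passed. In the deletion 4 of them, named after their values were seen, had an unadjusted p under 0.05 (Odf1, Gapdhs, Acrv1 and Spaca1, with log2 fold changes of -0.48, -0.44, -0.33 and -0.27), and in 23KRA 0 had. The shares over all genes by edgeR were 4.74% in the deletion and 3.04% in 23KRA. Prm1 averaged 979 CPM in Cbx2-deleted libraries and 1101 CPM in oil controls, and Prm2 averaged 249 CPM in homozygotes and 315 CPM in wild types. Sertoli markers summed to 111 to 113 CPM in Cbx2-deleted libraries and 111 to 116 CPM in oil controls, and to 35.0 to 62.2 CPM in homozygotes and 35.7 to 68.0 CPM in wild types. Leydig markers summed to 12.6 to 14.1 CPM in Cbx2-deleted libraries and 17.6 to 22.2 CPM in oil controls. Of the 6, 5 had a log2 fold change below 0 and 1 above. Only Cyp17a1 of androgen synthesis passed (1.66 CPM in Cbx2-deleted libraries and 6.07 CPM in oil controls, log2 fold change -1.86, SE 0.26, edgeR adjusted p = 0.00315). The 1 above 0 was Lhcgr, named after its values were seen. It averaged 0.979 CPM in Cbx2-deleted libraries and 0.345 CPM in oil controls (log2 fold change 1.48, SE 0.53, edgeR adjusted p = 0.971). Markers of undifferentiated spermatogonia, with Zbtb16 and Lin28a highest, summed to 104 to 116 CPM in Cbx2-deleted libraries and 107 to 108 CPM in oil controls, with 0 of 10 passing. They summed to 112 to 139 CPM in homozygotes and 119 to 151 CPM in wild types, with 0 of 7 passing. No marker was at 0 in all libraries of an experiment. Markers of macrophages, myoid and endothelial cells had no call, and their sums were at most 39.7 CPM in each library of the deletion experiment and 81.3 CPM in the 23KRA experiment.

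The genes whose levels ran closest to each PCGF gene were sought among 8215 genes with at least 10 CPM in both experiments, by the root mean square difference of log2 CPM over 14 libraries, with each gene centred within its experiment. Bmi1 was nearest to Utp4 (0.056) and Ube2k (0.057), Pcgf3 to Arnt (0.052) and Cnot4 (0.062), and Pcgf5 to Cops6 (0.061) and Psme1 (0.061). Within a distance of 0.1 lay 169 genes for Bmi1, 104 for Pcgf3 and 158 for Pcgf5, so the named neighbours are 2 of many near ones. The members of lower level had more distant neighbours, with Pcgf1 nearest to Spata22 (0.15) and Mtfr2 (0.16), Pcgf2 to Stat2 (0.16) and Fbf1 (0.17), and Pcgf6 to Mmaa (0.22) and Fbxo47 (0.24). The members' own root mean square deviations, 0.093 for Pcgf3 to 0.40 for Pcgf6, set the scale of these distances, and no PCGF gene was among the 2 nearest of another.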

How the data were processed

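RNA of c-KIT-positive spermatogonia was sequenced in 14 libraries of 4 groups. The authors deposited read counts per gene with no normalization. Per the submitters' processing notes, the build was mm10 and the tools were STAR 2.5.3, Subread 1.5.0 with featureCounts, Trim Galore 0.4.3 and SAMtools 1.4.1. The sources used here do not state the annotation, the strand setting or the rule for reads with several matches, so overlapping genes may share counts. The labels give polyA RNA for the 23KRA libraries too, although their kit is for total RNA.

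Each table was analysed alone in R 4.3.3 with edgeR 4.0.16: filterByExpr, TMM scaling and a two-sided quasi-likelihood F test on all genes with Benjamini-Hochberg adjustment (16725 and 14208 genes, 2 and 8 residual degrees of freedom). DESeq2 1.42.0 and limma 3.58.1 (voom) were alternatives. Other alternatives were other scalings, no filter, a filter at 5 CPM, a replicate block, leaving out each library and leaving out the 2 libraries with fewest genes detected. Intervals are at 95%. Lengths, positions and sequences come from GENCODE annotation of GRCm38, the assembly also called mm10, read with Python 3.11.15. Counting errors do not cover PCR duplicates. Depth differed between experiments, and levels set across them also differ in kit.

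The family rule uses no measured value, but the members and lists were chosen with earlier results of these data known. Named genes are the 6 PCGF genes, Cbx2, up to 2 members per list that passed or else the 2 of highest control CPM, and the 2 nearest genes of each PCGF gene, predicted models left out. Some of those of the smaller marker lists are given by their sums only.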

Additional observations from a re-analysis of the deposited data

Results flagged for a closer look

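In groups of 5 libraries, a library counts as standing apart when its gap to the nearest other exceeds 0.71 of the group's range. Chance gives about 1 such group in 20, and 8 of 90 were found among the genes named here. Among the PCGF genes, Pcgf5 had 141 CPM in wild-type replicate 5, with the nearest wild type at 165 CPM. Without that library its log2 fold change in 23KRA was -0.019, and it did not pass with it or without it. Among partners, Usp7 had 639 CPM in wild-type replicate 3 (nearest 567.9 CPM), Hdac2 had 343 CPM in wild-type replicate 2 (nearest 297 CPM), Taf7l had 937 CPM in homozygote replicate 2 (nearest 801 CPM) and Dazl had 711 CPM in homozygote replicate 1 (nearest 774 CPM). Among markers of other cells, Tagln of myoid cells had 3.67 CPM in homozygote replicate 5 (nearest 1.06 CPM), Wt1 of Sertoli cells had 10.1 CPM in wild-type replicate 1 (nearest 3.09 CPM) and Cd74 of macrophages had 55.0 CPM in wild-type replicate 3 (nearest 13.1 CPM).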

How the results depend on the processing

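The count of PCGF genes called stayed at 0 under all 11 alternatives in the deletion and all 18 in 23KRA, as did that of partner genes. Over all genes the deletion gave 2 calls, against 8 with no filter, 1 with a filter at 5 CPM, 1 with DESeq2, 1 with limma-voom and 2 to 73 with 1 library left out. Leaving out a library of the deletion experiment leaves 1 in its group. The replicate number as a block gave 62 calls in the deletion and 2 in 23KRA, against 2 and 0 without it, and no PCGF gene in either. The labels do not say that the numbers pair animals, so the main test did not take them as pairs. Deviations from the group mean correlated between same-numbered libraries at r = 0.41 in the deletion and -0.040 to 0.41 in 23KRA. With 2 libraries a group these deviations mirror each other. The deletion therefore gives only 1 value, with its sign set by the numbering, and does not tell whether the numbers pair animals. In 23KRA 4 of 5 pairs were over 0.1 and 4 of 5 homozygotes correlated best with their own number. Most same-numbered libraries of 23KRA thus shared part of their deviation, which the main test leaves out.

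Log2 fold changes near 0 changed sign under some settings, and none passed. With 1 library left out they were -0.16 to 0.13 for Pcgf1 and -0.019 to 0.093 for Pcgf3 in the deletion, and -0.092 to 0.19 for Pcgf1, -0.17 to 0.048 for Pcgf2 and -0.025 to 0.056 for Pcgf5 in 23KRA. The difference of the effects then ran from -0.24 to 0.065 for Pcgf1, -0.0038 to 0.13 for Pcgf5 and -0.44 to 0.0030 for Pcgf6. In 23KRA, Pcgf2 was at 0.012 with limma-voom, and without the 2 libraries with fewest genes (wild-type replicates 2 and 3) at 0.18, with Pcgf1 at -0.025. The cause was not tested. Pcgf2 in the deletion kept its sign, at -0.52 to -0.081. The lowest counts were 87 for Pcgf6 and 151 for Pcgf1, and counting error was smaller than the spread between libraries for both.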
